A study of Homo sapiens with 12 samples.

Results

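Death receptor signalling was followed through 10 genes, picked by symbol from the 26364 rows of a deposited count table. They are the receptors FAS, TNFRSF10A and TNFRSF10B, the ligand TNFSF10, the adaptor FADD, the initiator caspases CASP8 and CASP10, and the inhibitors CFLAR, BIRC2 and XIAP. All 10 were listed and all 10 were among the 15087 genes that passed the filter on low counts, CASP10 through its counts in only 1 of the lines. RNA with a poly(A) tail was sequenced from JeKo-1 and Granta-519, 2 human lines of lymphoma origin grown in RPMI1640 with serum and given 4 µM chidamide, an inhibitor of histone deacetylases, or the vehicle alone for 12 h. Each of the 4 groups (JeKo-1 with vehicle, JeKo-1 with chidamide, Granta-519 with vehicle, Granta-519 with chidamide) held 3 libraries, with 12873642 to 16592694 counts per library. Each line is 1 established culture with 1 genetic background. Whether the replicates were grown separately is not stated in the labels, so the p-values here rest on differences among libraries that may be technical only.

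Death receptors are membrane proteins of the tumour necrosis factor receptor family. When a ligand such as the Fas ligand or TRAIL (encoded by TNFSF10) clusters them, they recruit the adaptor FADD, which binds initiator caspases that then cut and activate executioner caspases, either directly or through the mitochondria. The product of CFLAR, c-FLIP, competes with caspase-8 for the adaptor, and the inhibitor of apoptosis proteins encoded by BIRC2 and XIAP act on receptor complexes and on active caspases. In B-cell lymphomas the pathway is known as a route by which T and natural killer cells, and drugs acting on TRAIL receptors, can kill the tumour cell.

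The line labels were checked against marker genes before the results. All 6 B-cell markers had counts in every group, with a summed level of 2778 to 4152 CPM (library-scaled counts, with library sizes adjusted by the trimmed mean of M-values, TMM) per library over all groups. JeKo-1 and Granta-519 are both known as mantle cell lymphoma lines, whose defining gene is CCND1 (cyclin D1), usually with SOX11. CCND1 and SOX11 together stood at 2218 to 2318 CPM in Granta-519 with vehicle but at 0.0828 to 0.150 CPM in the vehicle libraries labelled JeKo-1, where SOX11 had no count. The identity of those libraries was thus not supported by these markers, and they are called the JeKo-1-labelled libraries throughout. Of 11 T and natural killer cell markers, 5 and 7 had counts in the JeKo-1-labelled vehicle and chidamide libraries and 4 and 8 in the Granta-519 ones. Their summed levels were 3.31 to 4.95, 6.12 to 8.98, 6.58 to 7.73 and 11.5 to 15.0 CPM in the same order, and CD2 was at 0 in all but the Granta-519 chidamide group. The 7 myeloid markers summed to 1.82 to 4.03 CPM with vehicle and 36.3 to 37.2 CPM with chidamide under the JeKo-1 label, and to 26.3 to 26.5 and 95.7 to 103 CPM in Granta-519, with MPO at 0 in 3 of the 4 groups. ITGAM made up most of each sum, with means of 2.42 and 24.2 CPM and of 24.9 and 79.3 CPM. CSF1R went from 0.176 to 8.82 and from 0.974 to 19.7 CPM. CD14 was at 0.123 and 0.122 and at 0.386 and 0.465 CPM. LYZ rose from 0.335 to 3.46 CPM under the JeKo-1 label but was at 0.044 and 0.092 CPM in Granta-519. The part of these markers in the results was not tested. In bulk RNA a change in the share of cells with a transcript and a change per cell cannot be told apart.

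The proximal promoters of 4 of the genes are shown as examples. TNFSF10, CASP8 and BIRC2 rose with chidamide in both lines, while FADD fell under the JeKo-1 label. CFLAR and CASP10 also rose in both lines, and TNFRSF10A and XIAP also fell under the JeKo-1 label, but their promoters are not shown. Each sequence holds the 250 bases before an annotated transcription start in RefSeq (GRCh38.p14), 5′ to 3′ on the strand of the gene. The TNFSF10 window lies at chr3:172523431-172523680 on the minus strand, the CASP8 window at chr2:201233213-201233462, the BIRC2 window at chr11:102346964-102347213 and the FADD window at chr11:70203046-70203295, the last 3 on the plus strand. For CASP8 and BIRC2, which have several annotated starts, the window farthest upstream is given. Capitals mark matches to the searched motifs on either strand.
TNFSF10: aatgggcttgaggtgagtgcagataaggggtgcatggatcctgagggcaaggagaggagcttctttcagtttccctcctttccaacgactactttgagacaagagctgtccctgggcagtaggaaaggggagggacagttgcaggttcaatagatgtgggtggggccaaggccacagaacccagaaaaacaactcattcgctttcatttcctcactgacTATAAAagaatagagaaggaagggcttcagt
CASP8: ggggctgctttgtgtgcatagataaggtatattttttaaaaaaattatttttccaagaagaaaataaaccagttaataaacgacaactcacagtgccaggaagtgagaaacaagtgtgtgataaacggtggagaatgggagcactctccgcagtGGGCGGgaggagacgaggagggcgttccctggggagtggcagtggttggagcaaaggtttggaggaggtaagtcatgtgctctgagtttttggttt
BIRC2: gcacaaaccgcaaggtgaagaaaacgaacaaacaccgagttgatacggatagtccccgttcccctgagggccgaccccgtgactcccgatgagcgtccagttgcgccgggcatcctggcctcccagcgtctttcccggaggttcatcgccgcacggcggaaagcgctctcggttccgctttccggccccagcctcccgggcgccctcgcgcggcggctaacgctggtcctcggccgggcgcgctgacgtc
FADD: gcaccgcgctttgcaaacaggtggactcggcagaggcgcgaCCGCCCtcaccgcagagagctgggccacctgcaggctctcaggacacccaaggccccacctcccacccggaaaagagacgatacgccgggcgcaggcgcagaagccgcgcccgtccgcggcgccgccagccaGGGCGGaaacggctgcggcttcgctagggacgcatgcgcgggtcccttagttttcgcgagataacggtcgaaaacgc
The motifs searched, on both strands, were the GC box with the letters GGGCGG and the CCAAT box. The E-box bound by Myc and related factors was searched as CACGTG in the same way. For the TATA box the letters were TATAAA, and those of the cAMP response element were TGACGTCA. No match overlapped another in these windows. The TNFSF10 window had 1 TATAAA and none of the other motifs. CASP8 had 1 GGGCGG, FADD had 2, of which 1 was read on the opposite strand, and the BIRC2 window shown had none of the 5 motifs. A second annotated BIRC2 start has a window at chr11:102347124-102347373, which overlaps the one shown. It had 1 GGGCGG and 1 TGACGTCA, the only full cAMP response element letters in any of the windows searched. The BIRC2 window shown ends inside that same match, just before its last letter. Of the 2 other CASP8 windows, the one at chr2:201257785-201258034 had 1 TATAAA and 2 CCAAT and the other had none of the motifs, so the matches depend on the start chosen. The base composition differed as well, with 49.6% G and C for TNFSF10, 45.6% for CASP8, 67.6% for BIRC2 and 68.8% for FADD. Of 17 windows searched for 7 of the 10 genes, 10 held GGGCGG and 0 held CACGTG. The windows of TNFRSF10A and TNFRSF10B were not searched. Some searched windows overlap and share a GGGCGG, as for FAS and XIAP, so the 10 do not stand for separate sites. Over 35116 windows of the same length, the GC box occurred in 42.6%, the CCAAT box in 32.0%, the E-box in 6.34%, the TATA box in 10.7% and the cAMP response element in 1.65%. A match is a description of letters, and no binding was measured.

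After chidamide, 9 of the 10 genes differed from vehicle in the JeKo-1-labelled libraries and 6 of the 10 in Granta-519. TNFSF10, CASP8, CASP10, CFLAR and BIRC2 rose in both lines, and none fell in both. TNFRSF10B rose, and TNFRSF10A, FADD and XIAP fell, in the JeKo-1-labelled libraries, while FAS fell in Granta-519. Under the JeKo-1 label the XIAP call held in only 3 of 14 alternatives, and FAS, not called there, stayed uncalled in 6 of 14. A change was called by edgeR's quasi-likelihood test at a Benjamini-Hochberg adjusted p under 0.05 over all tested genes. In the JeKo-1-labelled libraries 66.4% of all tested genes were called (35.3% higher and 31.1% lower), against 6 of these genes higher and 3 lower. For Granta-519 70.9% were called (39.6% higher and 31.3% lower), against 5 higher and 1 lower. The share of all tested genes that rose in both lines was 24.1%, and 22.4% fell in both. The median log2 change of the 10 genes was 0.22 under the JeKo-1 label and 0.13 in Granta-519, beside 0.04 and 0.08 over all tested genes. Upper-quartile scaling moved the median over all genes to 0.19 and 0.18, so that changes of this size depend on the scaling.

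**Figure D1:**
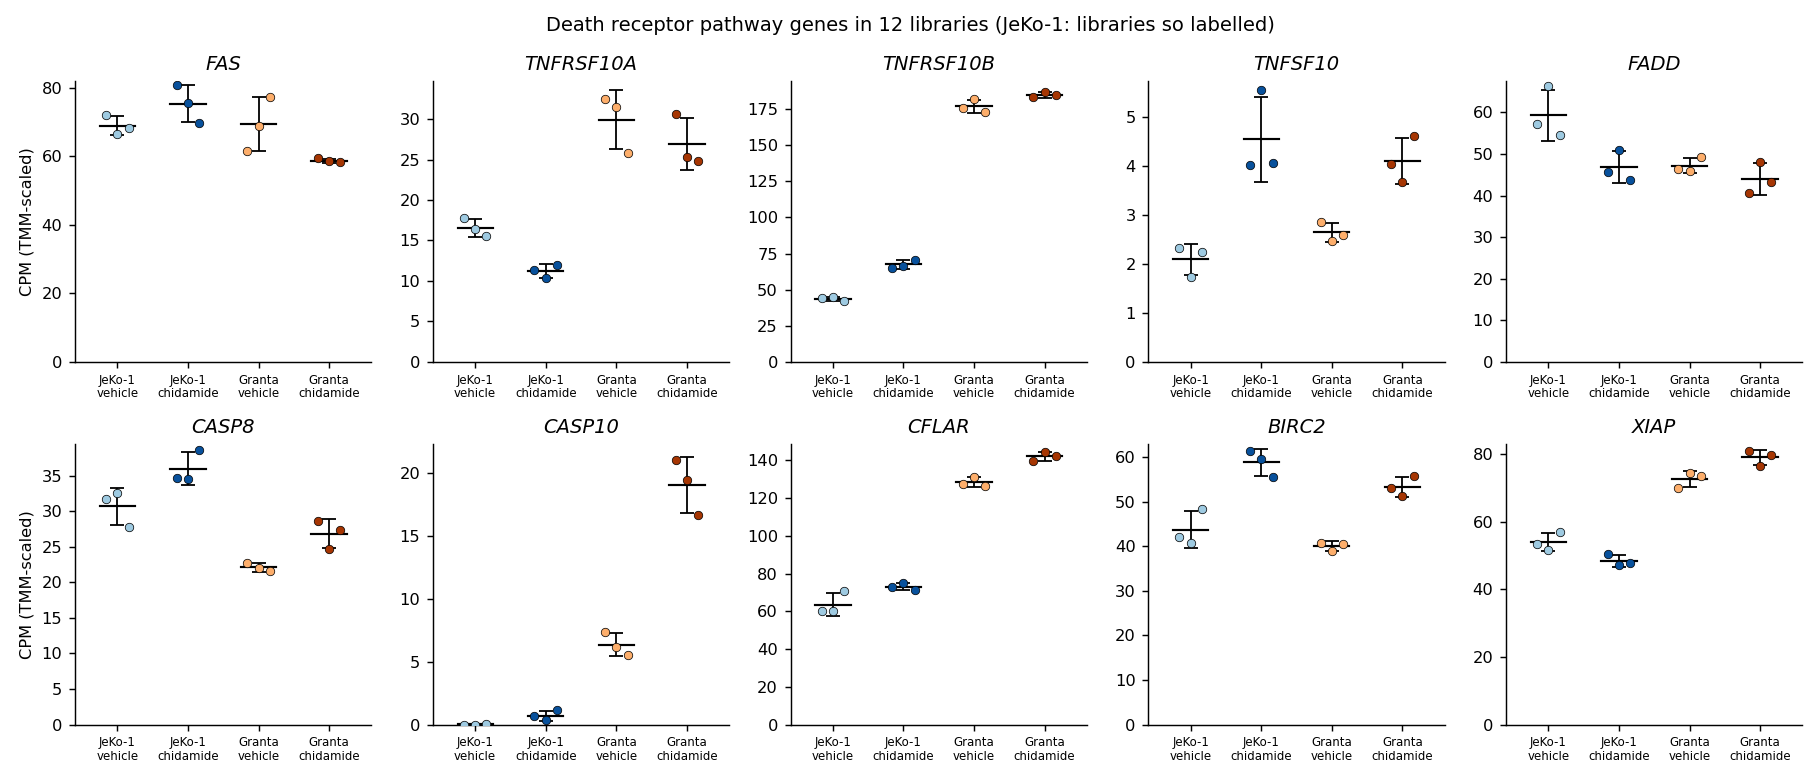
Level of each of the 10 genes (CPM, TMM-scaled, linear axes starting at 0) in the 12 libraries by group, with points for libraries in order of replicate number, the mean as a line and the SD as bars (n = 3). TNFRSF10B and CFLAR are higher in Granta-519 than under the JeKo-1 label in every library, and CASP10 lies between 0 and 1.15 CPM in the libraries with the JeKo-1 label.

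FAS encodes the receptor for the Fas ligand. Its level was 71.9, 66.4 and 68.3 CPM in the JeKo-1-labelled vehicle libraries (replicates 1 to 3) and 80.7, 75.5 and 69.8 CPM with chidamide. The groups overlapped, and the log2 change of 0.13 ± 0.06 (SE) did not pass the test (edgeR adjusted p = 0.0716). This call depended on the processing, since FAS was called higher under 8 of 14 alternatives, where the adjusted p ran from 0.000157 to 0.306. Granta-519 gave 61.6, 68.9 and 77.4 CPM with vehicle and 59.4, 58.5 and 58.2 CPM with chidamide. All chidamide libraries of Granta-519 lay below all of its vehicle libraries, and FAS fell by 0.24 ± 0.06 (SE) on the log2 scale (edgeR adjusted p = 0.000975). The antisense gene FAS-AS1 was at most 1.30 CPM in any library. The strand setting of the counting is not given in the sources used here, so reads of FAS and FAS-AS1 may be mixed.

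TNFRSF10A and TNFRSF10B encode the signalling receptors for TRAIL, DR4 and DR5, and they moved in opposite directions under the JeKo-1 label. TNFRSF10A was at 17.8, 16.4 and 15.6 CPM with vehicle and at 11.4, 10.3 and 12.0 CPM with chidamide there. The groups did not overlap, and the gene was 1.47-fold lower with chidamide (log2 change −0.56 ± 0.11 SE, edgeR adjusted p = 1.49e-05). In the same libraries TNFRSF10B was at 44.0, 44.6 and 42.0 CPM with vehicle and at 65.2, 66.5 and 70.7 CPM with chidamide. Every chidamide library was above every vehicle library, and the gene was 1.55-fold higher (log2 change 0.63 ± 0.06 SE, edgeR adjusted p = 1.18e-14). Both calls held under all 14 alternatives tried.

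In Granta-519 neither receptor passed the test. TNFRSF10A stood at 32.5, 31.5 and 25.8 CPM with vehicle and at 30.6, 25.4 and 24.8 CPM with chidamide. These groups overlapped (log2 change −0.15 ± 0.09 SE, edgeR adjusted p = 0.126). TNFRSF10A was however called lower in Granta-519 under 4 of 14 alternatives, among them those without chidamide replicate 1 (log2 change −0.24, edgeR adjusted p = 0.0334) or without vehicle replicate 3 (−0.25, edgeR adjusted p = 0.0171). TNFRSF10B stood at 176, 182 and 173 CPM with vehicle and at 183, 187 and 185 CPM with chidamide. Its chidamide libraries were all above its vehicle libraries by a narrow gap, and the log2 change of 0.07 ± 0.05 (SE) missed the threshold (edgeR adjusted p = 0.201). Over 14 alternatives the TNFRSF10B change in Granta-519 ran from −0.04 to 0.16 on the log2 scale, and 3 of them, all changes of scaling or tool, called it higher (adjusted p of 0.00166 to 0.0479).

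TNFSF10 encodes TRAIL, the ligand of both receptors, and it had few counts. Under the JeKo-1 label it had 34, 23 and 27 counts with vehicle (2.32, 1.72 and 2.24 CPM) and 68, 78 and 64 counts with chidamide (4.02, 5.55 and 4.07 CPM). The groups did not overlap, and TNFSF10 rose 2.15-fold (log2 change 1.103 ± 0.22 SE, edgeR adjusted p = 1.50e-05). Granta-519 had 44, 39 and 39 counts with vehicle (2.87, 2.47 and 2.60 CPM) and 59, 52 and 68 with chidamide (4.04, 3.67 and 4.61 CPM). There too the groups were apart, and the rise was 1.55-fold (log2 change 0.64 ± 0.21 SE, edgeR adjusted p = 0.00590). Both rises held under all 14 alternatives, and the larger value under the JeKo-1 label did not differ from that of Granta-519 by the test below. T and natural killer cells are known to express TRAIL, and the sums of their markers given above were higher with chidamide in both lines. The largest rises were of NKG7 (3.29 to 4.59 CPM) and CD3E (0.098 to 1.44) under the JeKo-1 label. In Granta-519 they were of PRF1 (6.43 to 9.57 CPM) and CD8A (0.193 to 1.59). CD2, CD7 and CD8A had no count under the JeKo-1 label, and CD3D, CD3G and GZMA had none in Granta-519. Any part of such cells in the TNFSF10 rise was not tested.

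FADD couples the clustered receptors to the initiator caspases. It was at 57.2, 66.2 and 54.5 CPM in the JeKo-1-labelled vehicle libraries and at 45.7, 51.0 and 43.7 CPM with chidamide. No chidamide library reached the lowest vehicle library, and FADD fell by 0.35 ± 0.07 (SE) on the log2 scale (edgeR adjusted p = 3.11e-05). In Granta-519 the values of 46.3, 45.9 and 49.3 CPM with vehicle and 40.5, 48.2 and 43.3 CPM with chidamide overlapped. Its log2 change of −0.10 ± 0.07 (SE) did not pass the test (edgeR adjusted p = 0.213).

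CASP8 encodes caspase-8, the initiator caspase of the receptor complex. Its levels were 31.7, 32.5 and 27.8 CPM with vehicle and 34.7, 34.6 and 38.6 CPM with chidamide in the JeKo-1-labelled libraries. The groups did not overlap and the rise was 1.17-fold (log2 change 0.23 ± 0.08 SE, edgeR adjusted p = 0.0105). Without replicate 3 of either the vehicle or the chidamide group that call was lost, with an adjusted p of up to 0.1001. In Granta-519 CASP8 was at 22.7, 22.1 and 21.5 CPM with vehicle and at 28.6, 24.6 and 27.4 CPM with chidamide. Again the groups were apart, and the rise was 1.22-fold (log2 change 0.28 ± 0.09 SE, edgeR adjusted p = 0.00284), which without a filter on low counts had an adjusted p of 0.0821.

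CASP10 encodes caspase-10, the other initiator caspase with death effector domains, and it showed the widest range of the 10 genes. The JeKo-1-labelled vehicle libraries had 0, 0 and 1 counts, and the chidamide libraries had 11, 5 and 18. The groups were thus separate, but the fold rests on 1 vehicle count: the scaled ratio of 34 to 1 counts was 29.2 with a 95% interval of 4.89 to 1185, which covers counting error only (exact binomial). edgeR's test called it higher (adjusted p = 7.28e-06). Granta-519 had 113, 98 and 83 counts with vehicle (7.36, 6.20 and 5.53 CPM) and 307, 276 and 246 counts with chidamide (21.0, 19.5 and 16.7 CPM). There CASP10 rose 2.99-fold with no overlap (log2 change 1.58 ± 0.14 SE, edgeR adjusted p = 7.25e-15). Among the 10 genes it was the largest rise in Granta-519, in the reported fit and under each of the 14 alternatives, and past the 2-fold mark that 18.2% of all tested genes passed upward there. Under the JeKo-1 label the size of the rise is not settled, with so few counts. The difference in log2(score + 0.1) on the deposited score was 0.26 there (limma adjusted p = 0.0402). An added 0.1 draws log2 changes of low values towards 0. CASP10 stood at 0.00413 CPM per kb of merged exons with vehicle there and at 0.107 with chidamide. CFLAR, CASP10 and CASP8 are neighbours on chromosome 2, and gene counts do not separate their isoforms.

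CFLAR encodes c-FLIP, whose isoforms block or tune caspase-8 at the receptor. It was at 60.1, 60.2 and 70.6 CPM with vehicle and at 72.9, 75.2 and 71.5 CPM with chidamide in the JeKo-1-labelled libraries. Vehicle replicate 3 came close to the chidamide libraries without reaching them, and the rise was 1.15-fold (log2 change 0.20 ± 0.06 SE, edgeR adjusted p = 0.00142). In Granta-519 it was at 128, 131 and 126 CPM with vehicle and at 140, 144 and 142 CPM with chidamide. The groups were separate and the rise was 1.11-fold (log2 change 0.15 ± 0.05 SE, edgeR adjusted p = 0.00924), but over 14 alternatives the adjusted p ran from 3.34e-05 to 0.573. The antisense gene CFLAR-AS1 had at most 0.650 CPM in any library.

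BIRC2 encodes cIAP1, a ubiquitin ligase of receptor complexes, and its rise was nearly the same size in both lines. In the JeKo-1-labelled libraries it went from 42.1, 40.6 and 48.4 CPM with vehicle to 61.4, 59.6 and 55.4 CPM with chidamide (1.35-fold, log2 change 0.43 ± 0.07 SE, edgeR adjusted p = 1.39e-07). In Granta-519 it went from 40.9, 38.9 and 40.5 CPM to 53.2, 51.3 and 55.7 CPM (1.33-fold, log2 change 0.41 ± 0.07 SE, edgeR adjusted p = 3.71e-07). In neither line did the groups overlap, and both rises held under all 14 alternatives.

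XIAP encodes the inhibitor that binds active executioner caspases and caspase-9. With the JeKo-1 label it was at 53.3, 51.7 and 56.8 CPM with vehicle and at 50.3, 47.1 and 47.8 CPM with chidamide. These groups were apart, and XIAP fell by 0.15 ± 0.06 (SE) on the log2 scale (edgeR adjusted p = 0.0257). Of 14 alternatives 11 lost that call, with an adjusted p of up to 0.962. Granta-519 had 69.9, 74.5 and 73.5 CPM with vehicle and 80.8, 76.4 and 79.7 CPM with chidamide, without overlap. Its log2 change of 0.12 ± 0.06 (SE) was close to the threshold (edgeR adjusted p = 0.0530), and 5 of 14 alternatives called it higher.

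Counting libraries without a model gave a similar picture. Under the JeKo-1 label 6 of the 10 genes were higher with no overlap and 3 were lower, where 35.2% and 31.4% of all tested genes were so. For Granta-519 7 were higher with no overlap and 1 was lower, where 41.3% and 32.5% of all tested genes were so.

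**Figure D2:**
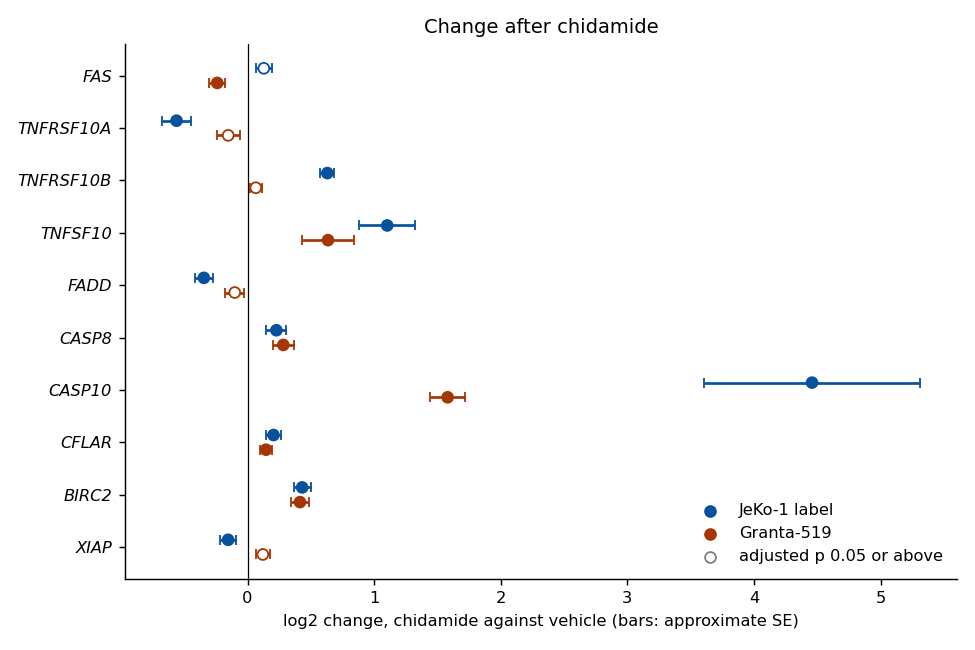
Log2 change with chidamide against vehicle for each gene in the JeKo-1-labelled libraries (blue) and Granta-519 (brown), with approximate SE bars and open symbols where the adjusted p was 0.05 or above. TNFRSF10B and TNFRSF10A lie on opposite sides of 0 under the JeKo-1 label (0.63 and −0.56), whereas both Granta-519 symbols are open; the CASP10 value under the JeKo-1 label rests on 1 vehicle count.

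Whether the chidamide effect differed between the lines was tested directly with the interaction term of the same fit. The effect was more positive under the JeKo-1 label for 3 of the 10 genes and more negative for 2, where 39.5% of all tested genes differed (20.0% more positive and 19.5% more negative). CASP10, which passed the filter only through Granta-519, is 1 of the 3. TNFRSF10B had a difference of 0.56 ± 0.07 (SE) on the log2 scale (edgeR adjusted p = 5.04e-09), and FAS had 0.37 ± 0.09 (edgeR adjusted p = 0.000842). Both of these differences held under all 19 alternatives. TNFRSF10A differed by −0.41 ± 0.14 (SE), with an edgeR adjusted p of 0.0190 that ran from 0.00904 to 0.188 over the alternatives. That call was lost under 8 of 19 alternatives, 4 of which left out a single library (JeKo-1-labelled chidamide replicate 2 or vehicle replicate 1, Granta-519 chidamide replicate 1 or vehicle replicate 3; adjusted p of 0.0610 to 0.0961). XIAP differed by −0.27 ± 0.08 (edgeR adjusted p = 0.00683), a call lost under 3 of 19 alternatives. For CASP10 the fitted difference was 2.88 ± 0.98 (edgeR adjusted p = 0.0155), but it rests on the 1 vehicle count. It lost its call in 3 fits without a library (adjusted p of 0.0595 to 0.0826). On the deposited length-scaled score it was −0.93 (limma adjusted p = 0.000168), where the added 0.1 draws the low JeKo-1-labelled values towards no change. The other 5 genes did not pass: TNFSF10 with 0.47 ± 0.31 (edgeR adjusted p = 0.238), FADD with −0.24 ± 0.10 (0.0521), CASP8 with −0.05 ± 0.12 (0.778), CFLAR with 0.06 ± 0.08 (0.598) and BIRC2 with 0.02 ± 0.10 (0.946). FADD stayed uncalled under 12 of 19 alternatives and CFLAR under 17. The remaining alternatives called a difference, with a lowest edgeR adjusted p of 0.0205 for each gene. A value that misses the threshold does not show that the lines responded alike.

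In vehicle the lines already differed in most of these genes. Relative to Granta-519, 2 of the 10 genes were higher under the JeKo-1 label and 5 were lower, where 79.8% of all tested genes differed (35.5% higher and 44.3% lower). TNFRSF10B averaged 43.5 ± 1.37 CPM (SD, n = 3) under the JeKo-1 label and 177 ± 4.60 CPM in Granta-519, a 4.06-fold gap (edgeR adjusted p = 6.78e-39). CFLAR averaged 63.6 ± 6.02 CPM (SD, n = 3) against 128 ± 2.63 CPM, 2.02-fold lower (edgeR adjusted p = 4.22e-24). TNFRSF10A, at 16.6 ± 1.11 against 29.9 ± 3.61 CPM (SD, n = 3), was 1.80-fold lower (edgeR adjusted p = 2.20e-11). Thus the receptors for TRAIL and the inhibitor c-FLIP were all at the lower level under the JeKo-1 label. XIAP was also lower, at 53.9 ± 2.64 against 72.6 ± 2.44 CPM (SD, n = 3; edgeR adjusted p = 4.07e-09). CASP10 had 1 count in all under the JeKo-1 label against 294 in Granta-519, a scaled ratio of 255 with a 95% counting interval of 45.4 to 10107; it is 1 of the 5 lower genes, but it was tested only because of its level in Granta-519.

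FADD and CASP8 went the other way. FADD averaged 59.3 ± 6.13 CPM (SD, n = 3) under the JeKo-1 label and 47.2 ± 1.82 CPM in Granta-519 (log2 difference 0.33 ± 0.07 SE, edgeR adjusted p = 3.86e-05). CASP8 averaged 30.7 ± 2.56 CPM (SD, n = 3) against 22.1 ± 0.57 CPM (log2 difference 0.48 ± 0.09 SE, edgeR adjusted p = 1.32e-06). FAS, TNFSF10 and BIRC2 did not pass in vehicle (edgeR adjusted p = 0.921, 0.198 and 0.105). With chidamide in both lines 3 genes were higher under the JeKo-1 label and 5 lower, where 81.7% of all tested genes differed (36.4% higher and 45.3% lower). The lower genes were TNFRSF10A, TNFRSF10B, CASP10, CFLAR and XIAP. Of these, CASP10 (34 against 829 counts) was again tested only because of its level in Granta-519. Here FAS was higher, at 75.3 ± 5.47 against 58.7 ± 0.61 CPM (SD, n = 3; edgeR adjusted p = 1.37e-06), and FADD no longer passed (edgeR adjusted p = 0.261). The BIRC2 difference of 0.14 on the log2 scale was called (edgeR adjusted p = 0.0458) but lost under 8 of 14 alternatives. The comparisons between lines and the chidamide effects share libraries, so they are not independent of each other.

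Ratios of counts inside a library do not depend on how libraries are scaled. The counts of TNFRSF10B to those of TNFRSF10A stood at 2.48, 2.72 and 2.70 in the JeKo-1-labelled vehicle libraries and at 5.72, 6.45 and 5.87 with chidamide. The groups were far apart, with a difference of 1.19 ± 0.07 (SE) in the log2 ratio and an exact two-sided permutation p of 0.1, the smallest that 3 against 3 libraries allow. In Granta-519 the ratio was 5.41, 5.78 and 6.70 with vehicle and 5.98, 7.38 and 7.45 with chidamide. These groups overlapped (log2 difference 0.22 ± 0.14 SE, exact permutation p = 0.2). With chidamide the JeKo-1-labelled ratios lay inside the range of all Granta-519 libraries.

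The counts of CFLAR to those of CASP8 contrast the inhibitor with the caspase it acts on. They stood at 1.89, 1.85 and 2.54 in the JeKo-1-labelled vehicle libraries and at 2.097, 2.17 and 1.85 with chidamide, with overlap and a log2 difference of −0.03 ± 0.16 (SE, exact permutation p = 0.9). Vehicle replicate 3 stood apart from its group, and without it the difference was 0.12. Granta-519 gave 5.62, 5.95 and 5.87 with vehicle and 4.89, 5.86 and 5.20 with chidamide (log2 difference −0.13 ± 0.08 SE, exact permutation p = 0.2). The vehicle and chidamide ratios thus overlapped in each line, though Granta-519 chidamide replicates 1 and 3 lay below every Granta-519 vehicle library. So few libraries cannot show that the ratio was unchanged. Every Granta-519 ratio exceeded every JeKo-1-labelled one. Adjusted over these 4 tests, the p-values were 0.267, 0.267, 0.267 and 0.9.

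**Figure D3:**
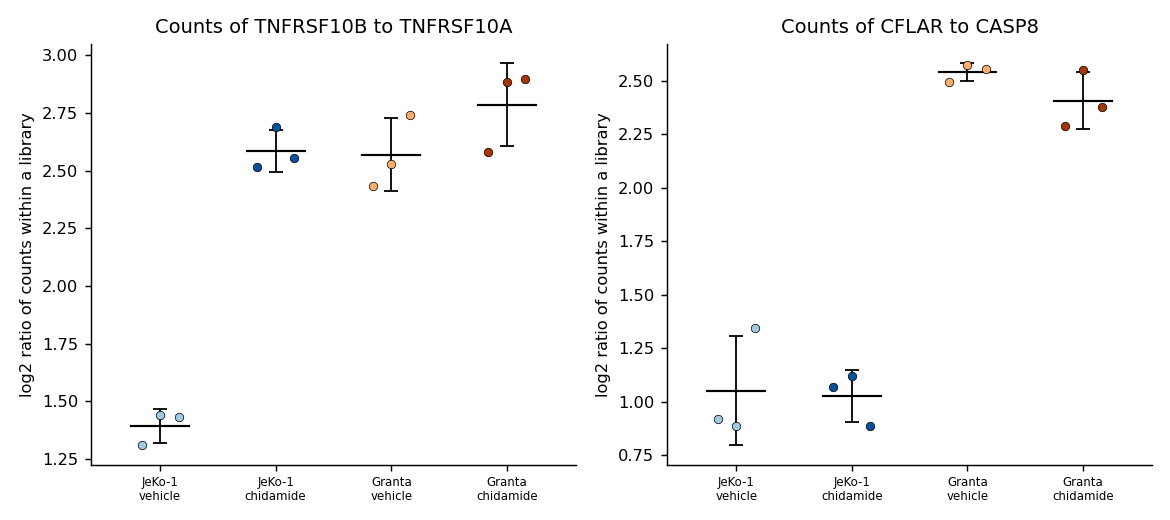
Log2 ratio of counts within each library for TNFRSF10B to TNFRSF10A (left) and CFLAR to CASP8 (right), with points for libraries, lines for means and bars for SD (n = 3); the axes do not start at 0. On the left the chidamide libraries with the JeKo-1 label (mean 2.59) lie at the height of Granta-519 with vehicle (mean 2.57), and on the right the groups of each line overlap.

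To compare levels between genes, CPM was divided by the length of the merged exons of each gene (GENCODE v29). Per kilobase, the order in Granta-519 with vehicle was TNFRSF10B (42.7 CPM per kb), FAS (26.8), FADD (25.6), TNFRSF10A (11.02), BIRC2 (9.43), XIAP (8.13), CFLAR (6.22), CASP8 (5.61), TNFSF10 (1.35) and CASP10 (0.952). FAS and FADD overlapped over libraries, as did TNFRSF10A and BIRC2. The order under the JeKo-1 label with vehicle was FADD (32.2 CPM per kb), FAS (26.7), TNFRSF10B (10.5), BIRC2 (10.3), CASP8 (7.79), TNFRSF10A (6.11), XIAP (6.04), CFLAR (3.08), TNFSF10 (1.07) and CASP10 (0.00413). TNFRSF10B overlapped with BIRC2 there, and TNFRSF10A with XIAP. Per kb of merged exons TNFRSF10B was thus the first in Granta-519 and the third under the JeKo-1 label; per kb of median transcript it was the second (60.3 CPM per kb) and the fifth (14.8, below CASP8 at 16.1).

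With chidamide the order changed at a few places. FAS (29.2 CPM per kb) and FADD (25.4) overlapped at the top under the JeKo-1 label, followed by TNFRSF10B (16.3), BIRC2 (13.8), CASP8 (9.14), XIAP (5.42), TNFRSF10A (4.15), CFLAR (3.55), TNFSF10 (2.33) and CASP10 (0.107). In Granta-519 the order was TNFRSF10B (44.6), FADD (23.9), FAS (22.7), BIRC2 (12.6), TNFRSF10A (9.92), XIAP (8.84), CFLAR (6.89), CASP8 (6.83), CASP10 (2.85) and TNFSF10 (2.103), with overlap of FADD with FAS and of CFLAR with CASP8. CASP10 passed TNFSF10 in Granta-519 with chidamide. CFLAR was moved the most by the length used: its merged exons span 20637 bases and its median transcript 1646, and per kb of median transcript it was the first of the 10 in both Granta-519 groups and the second under the JeKo-1 label. Per kb of median transcript CASP10 was already above TNFSF10 in Granta-519 with vehicle (3.07 and 1.48 CPM per kb).

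**Figure D4:**
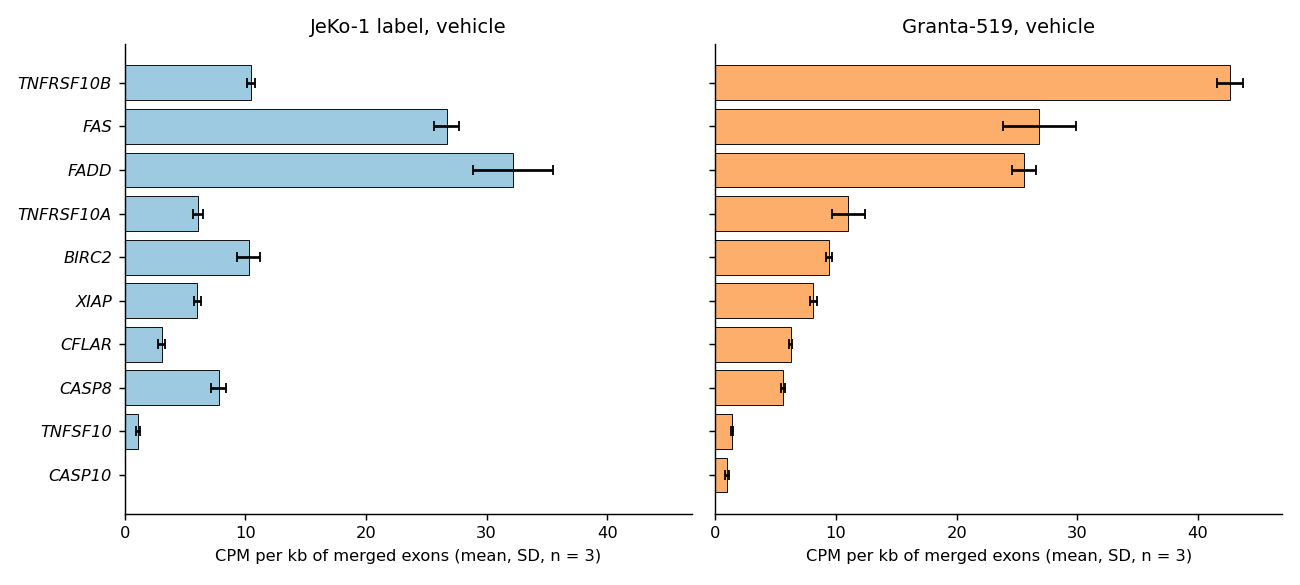
Level per kilobase of merged exons (CPM per kb, bars start at 0, SD bars, n = 3) of the 10 genes in the vehicle groups of the JeKo-1 label (left) and Granta-519 (right), ordered by the Granta-519 mean. TNFRSF10B is at 42.7 CPM per kb in Granta-519 and 10.5 under the JeKo-1 label; the place of CFLAR in the order depends on the gene length used.

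The rest of the pathway was taken from 4 lists of 54 genes in all, of which 52 were tested. Under the JeKo-1 label 22 rose, 18 fell and 12 did not pass, with a median log2 change of 0.01. Granta-519 had 17 higher, 23 lower and 12 that did not pass, with a median of −0.10. Over all tested genes 35.3% rose and 31.1% fell under the JeKo-1 label and 39.6% rose and 31.3% fell in Granta-519. The lists and the 10 genes were put together with earlier results of these data known, so their directions are a description.

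Among other death receptors, decoys and ligands, 6 of 9 tested genes rose in each line and none fell by the test. Of all tested genes, 35.3% rose and 31.1% fell under the JeKo-1 label, and 39.6% and 31.3% in Granta-519. TNFRSF10C, TNFRSF10D and TNFRSF11B were tested only because of their level in Granta-519. The median log2 change of the 9 genes was 1.65 under the JeKo-1 label, also with TNFRSF11B at its lower bound and the 2 genes without counts there left out. In Granta-519 it was 0.46. TNFSF15, the ligand of the death receptor DR3, rose from a mean of 1.71 to 22.7 CPM under the JeKo-1 label (log2 change 3.71 ± 0.16 SE, edgeR adjusted p = 2.04e-27). In Granta-519 it rose from 1.50 to 17.7 CPM (3.56 ± 0.17, edgeR adjusted p = 3.62e-26). TNF, the founding ligand of the family, rose from 16.7 to 72.0 CPM under the JeKo-1 label (2.12 ± 0.08, edgeR adjusted p = 4.98e-29) and from 11.5 to 15.8 CPM in Granta-519 (0.46 ± 0.10, edgeR adjusted p = 0.000115). TNFRSF1B, the second TNF receptor, which lacks a death domain, rose from 0.507 to 3.19 CPM and from 35.4 to 87.8 CPM (2.64 ± 0.29 and 1.31 ± 0.07, edgeR adjusted p = 1.05e-11 and 8.80e-23). TNFRSF11B, a soluble receptor that can bind TRAIL, had 0 counts with vehicle and 8 with chidamide under the JeKo-1 label, at least 2.29-fold higher against a floor of 3 counts per group. That floor leaves out the counting error of the 8, and the exact 95% interval of the ratio began at 1.46.

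The membrane decoys for TRAIL were found in only 1 of the lines. TNFRSF10C and TNFRSF10D, which bind TRAIL without passing on a death signal, had 0 counts in all 6 JeKo-1-labelled libraries. In Granta-519 with vehicle they had 171 and 1615 counts, at least 49.4-fold and 467-fold higher against a floor of 3 counts per group (exact 95% intervals from 39.8 and 379). With chidamide Granta-519 had 208 and 2100. FASLG, the Fas ligand gene, had 7 counts in Granta-519 with chidamide and 0 in the other 3 groups, and was not tested.

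In the list of adaptors, kinases and ubiquitin regulators, 7 of 23 rose and 10 fell under the JeKo-1 label, and 6 rose and 12 fell in Granta-519, with medians of −0.11 and −0.14 (−0.05 under the JeKo-1 label with MLKL at its lower bound and RIPK3 left out). MLKL, the executioner of necroptosis, had 0 counts with vehicle and 41 with chidamide under the JeKo-1 label, at least 11.7-fold higher against the floor (exact 95% interval from 9.11). RIPK3, the kinase that activates it, had 1 and 0 counts in the same groups and 160 and 117 in Granta-519. It is named after its values were seen. Of 8 other inhibitor of apoptosis genes and antagonists, 3 rose and 3 fell under the JeKo-1 label and 2 rose and 3 fell in Granta-519 (medians −0.03 and −0.12). BIRC3, which encodes cIAP2, rose from 241 to 573 CPM in Granta-519 (log2 change 1.25 ± 0.05 SE, edgeR adjusted p = 7.81e-20) and from 831 to 1303 CPM under the JeKo-1 label (0.65 ± 0.05, edgeR adjusted p = 3.82e-13).

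The list of executioner caspases and the mitochondrial branch holds 12 genes, among them FAIM and FCMR, which are neither. Of the 12, 6 rose and 5 fell under the JeKo-1 label, and 3 rose and 8 fell in Granta-519 (medians 0.11 and −0.41). FAIM and FCMR are among those that rose under the JeKo-1 label (log2 change 0.99 and 3.05), so they raise the median there. BAX, which opens the mitochondrial outer membrane, fell from 127 to 60.9 CPM under the JeKo-1 label (log2 change −1.06 ± 0.06 SE, edgeR adjusted p = 1.20e-22) and from 141 to 77.7 CPM in Granta-519 (−0.87 ± 0.06, edgeR adjusted p = 1.07e-19). FCMR, listed under its older symbol FAIM3 and first described as an inhibitor of Fas signalling, rose from 2.39 to 19.9 CPM under the JeKo-1 label (3.05 ± 0.13, edgeR adjusted p = 2.43e-27). In Granta-519 FCMR fell from 76.2 to 62.4 CPM (−0.29 ± 0.06, edgeR adjusted p = 8.73e-05).

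**Figure D5:**
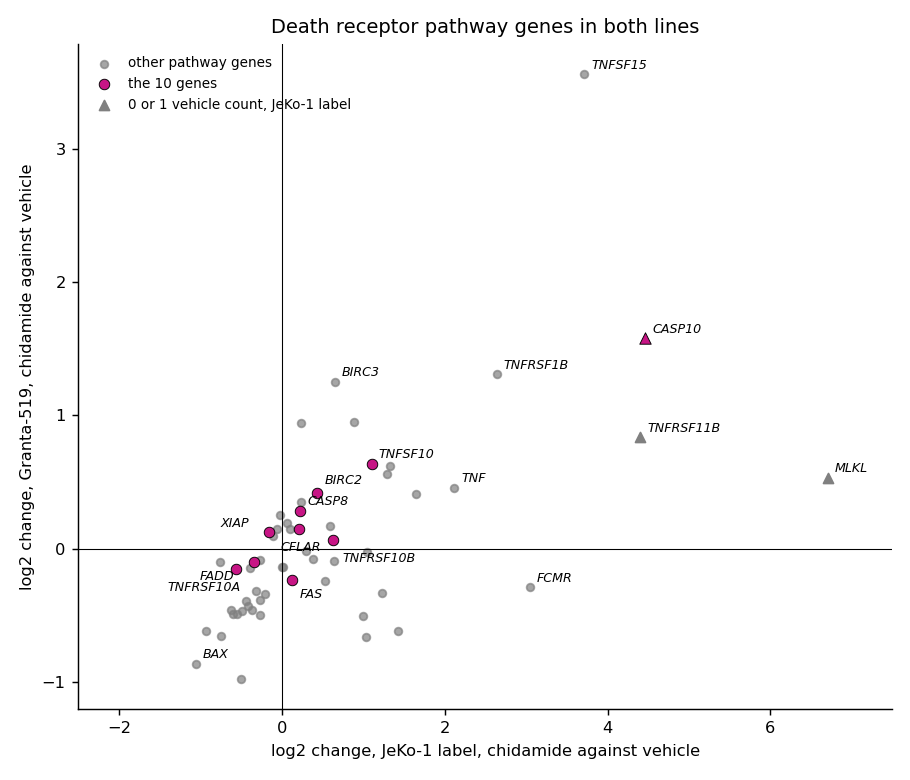
Log2 change with chidamide under the JeKo-1 label (x axis) against that in Granta-519 (y axis) for the 10 genes (magenta) and the other tested pathway genes (grey), without genes at or under 3 counts in both JeKo-1-labelled groups. Triangles mark fitted values that rest on 0 or 1 vehicle count under the JeKo-1 label; TNFSF15 lies at 3.71 and 3.56, and FCMR at 3.05 and −0.29.

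For 5 of the genes, the tested genes with the most similar pattern were found by Pearson's r of log2 CPM over the 12 libraries, which share their scaling and fall into 4 groups. TNFRSF10B was most like CTNNA1 and AEBP1 (r = 0.999 for both). CTNNA1 had means of 22.3 and 40.7 CPM under the JeKo-1 label without and with chidamide and of 137 and 141 CPM in Granta-519. CFLAR was most like ZFP3 and AGRN (r = 0.996 for both), but r takes no account of the size of a gap. ZFP3 had means of 0.103 and 0.303 CPM under the JeKo-1 label and of 12.7 and 23.3 CPM in Granta-519, far wider apart than the 2.02-fold of CFLAR in vehicle, and AGRN went from 5.11 to 8.20 and from 50.96 to 89.98 CPM. TNFRSF10A was most like GOLGA3 and MTMR1 (r = 0.985 for both). GOLGA3 went from 116 to 79.3 CPM under the JeKo-1 label and from 200.1 to 169 CPM in Granta-519. TNFSF10 was most like AURKAPS1 (r = 0.964), a pseudogene that may share reads with its parent gene, and AASDH (r = 0.962). FAS had the loosest likeness, to PAN3 (r = 0.908) and DCTN4 (r = 0.885). PAN3 was at 70.8 and 79.8 CPM under the JeKo-1 label and at 66.9 and 53.3 CPM in Granta-519.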

How the data were processed

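The deposited table holds whole-number counts per gene symbol for 12 libraries, with groups and replicate numbers taken from the labels. The submitters' processing notes name STAR and the hg19 build; the counting tool, annotation and strand setting are not given in the sources used here. The second table, called TPM by the authors, holds a length-scaled score rather than TPM, as its columns have no common total; it was used only as an alternative input, with a pseudocount of 0.1 in limma 3.58.1.

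edgeR 4.0.16 in R 4.3.3 was run on the counts: filterByExpr by group, TMM, robust glmQLFit with 4 group means over all libraries (8 residual degrees of freedom) and glmQLFTest, with Benjamini-Hochberg adjustment over 15087 genes at 0.05. With a common biological coefficient of variation of 0.0422, small changes passed. The approximate SE was derived from the log2 change and the F statistic. For counts at or near 0 the floor was 3 counts per group, and intervals are exact binomial at 95%. The procedure was tested on simulated data. Of all genes, 4719 had no count. Between replicates a chi-square averaged 1.63 to 5.63 per gene, so none was merged.

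The 10 genes, the lists and the markers were chosen with earlier results of these data known. Of the wider lists, genes past the threshold and 2-fold in a line were named, at most the 6 largest per direction and line; for 5 of the genes the 2 tested genes with the highest r were named. Values of a named gene in the other line are given beside it, and genes with 0 counts in a line were named after their values were seen. Per-kb levels used GENCODE v29 and promoters RefSeq (GRCh38.p14), both on another build than the counts, matched by symbol; a CASP10 promoter window was not used here, nor were those of TNFRSF10A and TNFRSF10B. Alternatives were other scalings (relative log expression, upper quartile, library size), DESeq2 1.42.0, no filter, a replicate block, only the groups of a contrast, the score and leaving out each library. In fits without a library, the remaining ones share the spread of all groups.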

Additional observations from a re-analysis of the deposited data

Results flagged for a closer look

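The chidamide effect differed between the lines, by the interaction term of edgeR's quasi-likelihood fit, for FAS, TNFRSF10A, TNFRSF10B and XIAP, with CASP10 apart for its low counts. The effect under the JeKo-1 label minus that in Granta-519 was 0.37 on the log2 scale for FAS (edgeR adjusted p = 0.000842), with means of 68.9 and 75.3 CPM without and with chidamide under the JeKo-1 label and of 69.3 and 58.7 CPM in Granta-519. For TNFRSF10B it was 0.56 (edgeR adjusted p = 5.04e-09), with means of 43.5 and 67.5 CPM against 177 and 185 CPM. The difference for TNFRSF10A was −0.41 (edgeR adjusted p = 0.0190), with 16.6 and 11.2 CPM against 29.9 and 26.9 CPM, and was lost under 8 of 19 alternatives, 4 of them without a single library. XIAP differed by −0.27 (edgeR adjusted p = 0.00683), with 53.9 and 48.4 CPM against 72.6 and 79.0 CPM, and lost its call under 3 of 19. For CASP10 the fitted difference of 2.88 (edgeR adjusted p = 0.0155) rests on 1 vehicle count under the JeKo-1 label and does not support a difference. It was −0.93 on the score, where the added 0.1 draws the JeKo-1-labelled change towards 0. Between 19.5% and 20.0% of all tested genes passed this test in each direction.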

How the results depend on the processing

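All 14 alternatives kept the calls of TNFRSF10A, TNFRSF10B, TNFSF10, FADD, CFLAR and BIRC2 under the JeKo-1 label and of FAS, TNFSF10, CASP10 and BIRC2 in Granta-519. In Granta-519, 3 of the 10 genes were higher with no filter on low counts (5 in the reported fit). The number lower there was 3 with no filter and 3 with only the groups of the contrast (1 as reported), and 1 to 2 when a library was left out (2 without chidamide replicate 1 or vehicle replicate 3). For the difference between lines, 0 of the genes were more negative under library-size scaling, 0 with no filter, 1 with DESeq2 and 1 on the score (2 as reported). Over all genes, 1919 were more negative under library-size scaling and 1733 with no filter (2941 as reported), and 4669 were more positive with no filter (3015 as reported). In vehicle 1 gene was higher under the JeKo-1 label on the score (2 as reported). On the score the interaction values turned to −0.93 for CASP10 (limma adjusted p = 0.000168), −0.13 for TNFRSF1B (0.480) and −0.48 for TNFRSF11B (0.00892). These genes were low under the JeKo-1 label, where the 0.1 added to the score draws changes towards 0. The turned signs thus do not show an opposite difference. The log2 ratio of CFLAR to CASP8 under the JeKo-1 label ran from −0.11 to 0.12 when a library was left out, and was above 0 without chidamide replicate 3 (0.04) or vehicle replicate 3 (0.12). In 3 fits without a library (JeKo-1-labelled chidamide replicate 3, vehicle replicate 1 or vehicle replicate 2) the CASP10 interaction lost its call.

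Same-numbered vehicle and chidamide libraries did not deviate together (correlations of −0.03 to 0.03), so the numbers were not taken as pairs. A replicate block gave 10068 called genes under the JeKo-1 label (10016 without the block) and 10714 in Granta-519 (10695 without it); 6 of the 10 genes were then higher in Granta-519, with XIAP added, and FADD passed in the difference between lines. Of the called genes, 53.1% were higher under the JeKo-1 label, but 64.9% with upper-quartile scaling, 63.7% with library-size scaling and 63.1% on the score. In the difference between lines, 50.6% were more positive, but 70.0% with library-size scaling and 72.9% with no filter. The depth limits CASP10, MLKL and TNFRSF11B under the JeKo-1 label, and TNFSF10 has 23 to 78 counts per library. The cause of these shifts was not tested.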
